A study of Oryza sativa with 35 samples.

Results

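AMT1-2, a gene of the ammonium transporter family, and GLN2, the gene of the chloroplast glutamine synthetase, were followed through the organs of a rice plant at heading. Each gene was read by 1 given probe set, a group of short probes for 1 transcript, so that 2 of the 57381 probe sets on the array are described. The AMT1-2 probe set belongs to gene LOC4330008, which the rice gene table lists under both AMT1-2 and AMT1-3. Its direct neighbour LOC4330007 carries the same pair of names and has 0 probe sets in the array's annotation. The name OsAMT1;2 is given to LOC4330008 alone, and the gene is called AMT1-2 here. GLN2 (LOC4337272, also listed as GS2) has 2 probe sets, and the other one is given as a comparison.

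Ammonium transporters of the AMT1 family carry ammonium across the plasma membrane and are best known from roots, where rice takes up much of its nitrogen as ammonium. Glutamine synthetase joins ammonium to glutamate, and glutamate synthase then makes glutamate from the product. Plants have cytosolic forms, encoded by the GLN1 genes, and a plastid form, encoded by GLN2, which in leaves recaptures the ammonium set free by photorespiration. Nodes are the joints of the grass stem, where the vascular bundles of stem, leaf and panicle meet and mineral nutrients pass from one bundle to another.

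The study profiled organs of Oryza sativa cultivar Nipponbare grown on soil in a greenhouse, with no treatment or mutant in any group. On 35 one-colour Affymetrix arrays it covered the flower before anthesis, the panicle branch, internode I at its top and its base, node I, node II, the flag leaf sheath at its top and its base, and 3 positions along the flag leaf blade (tip, middle, base). These organ parts had 3 arrays each, except the sheath base with 2, and whole blades of the flag leaf, of leaf 2 and of leaf 4 had 1 array each. Repeats are given as biological replicates, but nothing says that they came from separate plants, so p-values cover only how far these samples spread, which may be technical.

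Levels are log2 of the deposited signal after quantile normalization, and they compare organs for a probe set, not one gene with another. Differences are log2 values ± SE from limma fitted to the 38673 probe sets that were bright enough. Calls needed both a 2-fold change and a Benjamini-Hochberg adjusted p below 0.05, and higher and lower are used of such calls. Precision is limited by how many arrays a group has. Groups of 3 had a replicate correlation of 0.917 to 0.951 over probe sets, and the 2 sheath base arrays one of 0.864. Marker genes were read in the organs: 8 of 8 floral regulators were highest in the flower, 4 of 4 node transporters in node I and 3 of 3 secondary wall cellulose synthases at the internode base. Of 5 genes of green tissue, 3 were highest in the panicle branch and 2 in the flag blade. The markers were chosen with earlier results of these data known, so they are no independent check of organ identity.

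AMT1-2 was highest in the nodes and read near the floor at the base of internode I. Node I read 9.81, 9.53 and 10.30, and node II read 10.23, 9.58 and 8.72. The top of internode I read 5.67, 5.10 and 5.20. At the internode base the deposited signals were 1.55, 0.763 and 1.92, close to the floor of 1 set before the log, where the 6 node arrays had signals of 479 to 1274. All 6 node arrays stood above all 6 internode arrays. All internode arrays, like those of the sheath base and the flower, lay under 5.83, the median of all values, which served as the limit for bright probe sets. The file gives no detection calls, so levels under 5.83 are not shown to be above background, and folds against these 4 parts are given as at least the fold over 5.83. This bound was chosen after the data were seen. It rests on group means, which have an error of their own, and adjusted p-values beside it belong to the log2 differences.

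GLN2 was low in the nodes and high in the internode. It read 8.16, 8.35 and 8.897 in node I and 8.34, 8.36 and 8.83 in node II. The top of internode I read 14.40, 14.33 and 14.28, and its base 11.56, 12.12 and 11.78. Every node array was below every internode array, and every base array was below every top array.

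**Figure D1:**
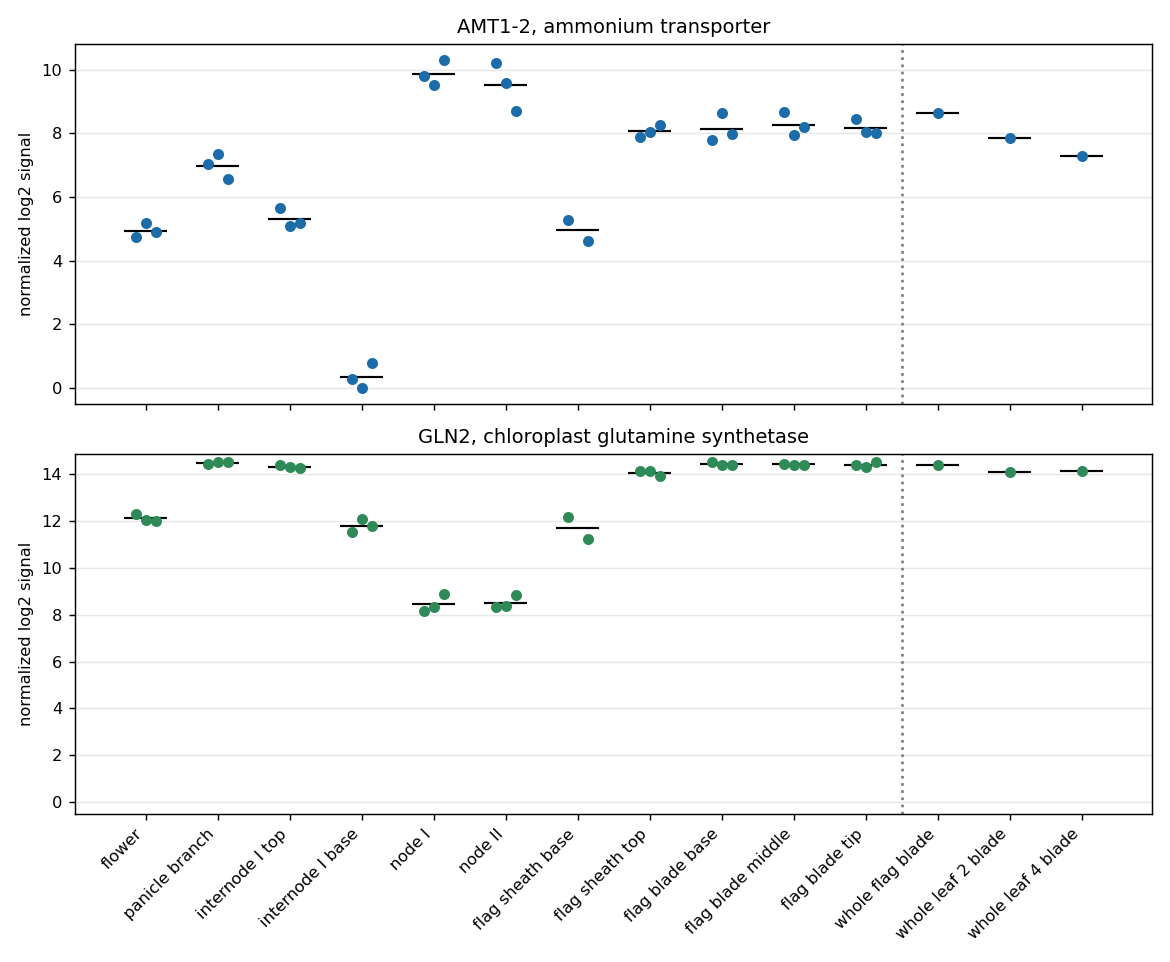
Normalized log2 signal (vertical axis) of AMT1-2 (upper panel) and GLN2 (lower panel) on each of the 35 arrays by organ part (horizontal axis); points are arrays, bars are means, and whole blades with 1 array each are right of the dotted line. AMT1-2 is highest on the 6 node arrays and lowest at the internode base, while GLN2 is lowest on the 6 node arrays.

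Nodes against internode I set the joints of the stem against the segment between them. AMT1-2 was higher in the nodes by 6.86 ± 0.23 (limma adjusted p = 8.71e-16), a difference of at least 14.6-fold, and 22.2% of the probe sets tested were called in this comparison. GLN2 was lower in the nodes by -4.59 ± 0.14 (adjusted p = 3.37e-16), which is 24.0-fold. Arrays of whole tissue pieces cannot tell fewer cells of a type from less RNA per cell, here and in every comparison that follows. The AMT1-2 difference was 4.76 on log2(signal + 16) and 3.87 with levels under 5.83 raised to it, and was called both ways.

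Taken part by part, node I was higher in AMT1-2 than the internode base by 9.53 ± 0.33 (adjusted p = 6.06e-15; 29% of probe sets called), or by 5.80 on log2(signal + 16). Against the internode top it was higher by 4.56 ± 0.33 (adjusted p = 1.83e-10; 19.3% called). Over 5.83 both amount to at least 16.6-fold, and the size beyond that rests on low signals. The corresponding GLN2 differences were -3.35 ± 0.20 for the base and -5.86 ± 0.20 for the top, the latter 58.3-fold, with adjusted p = 1.66e-11 and 3.24e-15. AMT1-2 and GLN2 thus differed in opposite directions against both ends of the internode.

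Node II is the next joint below node I. AMT1-2 differed between them by -0.37 ± 0.33 (node II minus node I, 95% interval -1.04 to 0.30, adjusted p = 0.834), and GLN2 by 0.04 ± 0.20 (-0.38 to 0.45, adjusted p = 0.987). Neither was called, and only 0.197% of probe sets were. The replicates of both nodes overlapped for both genes. AMT1-2 varied most among the node II arrays, with an SD of 0.76 (n = 3), against 0.39 (n = 3) in node I.

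Along internode I GLN2 was lower at the base, by -2.52 ± 0.20 (base minus top, adjusted p = 7.79e-10), in a comparison with 32.5% of probe sets called. AMT1-2 differed by -4.97 ± 0.33 (adjusted p = 4.13e-11) and by -1.71 on log2(signal + 16), both called. Both ends were under 5.83, however, and AMT1-2 entered the test through its level in other organs, so no fold is given and the difference cannot be told from one between background signals.

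The flag leaf sheath was likewise compared at its base and its top. AMT1-2 read 5.27 and 4.63 at the sheath base and 7.89, 8.03 and 8.28 at the top. GLN2 read 12.20 and 11.24 at the base and 14.15, 14.14 and 13.94 at the top. The base arrays lay below the top arrays for both genes. The difference was -3.12 ± 0.36 for AMT1-2, at least 4.73-fold (adjusted p = 1.92e-06), and -2.36 ± 0.22 for GLN2, or 5.13-fold (adjusted p = 1.56e-07), with 17.5% of probe sets called.

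The step from top to base was set against itself in internode and sheath. For GLN2 the 2 steps differed by -0.16 ± 0.30 (95% interval -0.78 to 0.46, adjusted p = 0.77), which was not called, with 17.3% of probe sets called for such a difference. For AMT1-2 the difference of the steps was -1.86 ± 0.49 (adjusted p = 0.00769). That call rests on internode signals under 5.83. On log2(signal + 16) the difference was 0.88 in the opposite direction (adjusted p = 0.15). Without replicate 1 of the sheath base it was -1.53 (adjusted p = 0.0565), so no direction is given. With levels under 5.83 raised to it, it was 2.24 (limma adjusted p = 0.000228). The internode step is then 0 by construction and 2.24 is the size of the sheath step alone, so this value does not bear on the direction.

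The base of the flag leaf sheath is the leaf tissue that wraps the stem just above its node. Node I was higher than this tissue in AMT1-2 by 4.93 ± 0.36, at least 16.6-fold (adjusted p = 9.19e-09; 10.4% of probe sets called). It was lower in GLN2 by -3.25 ± 0.22, or 9.49-fold (adjusted p = 3.88e-09). The 4 transporters that mark the node were measured beside them. Their summed level, the log2 of their added signals, was 15.42 to 15.65 in node I and 13.96 to 15.00 at the sheath base, and 10.90 to 11.14 over the 3 arrays of the internode top.

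The flag leaf blade was even along its length for both genes. AMT1-2 read 8.47, 8.03 and 8.02 at the tip, 8.67, 7.96 and 8.21 in the middle and 7.79, 8.64 and 8.00 at the base. GLN2 read 14.39, 14.33 and 14.52 at the tip, 14.47, 14.42 and 14.39 in the middle and 14.51, 14.39 and 14.41 at the base. The 3 positions overlapped for both genes. Base against tip differed by -0.03 ± 0.33 for AMT1-2 (95% interval -0.70 to 0.64) and by 0.03 ± 0.20 for GLN2 (-0.39 to 0.44). These adjusted p-values were 0.998 and 0.995, and 0.468% of probe sets were called. The middle against both ends differed by 0.12 ± 0.28 for AMT1-2 (-0.46 to 0.70, adjusted p = 0.926) and by 0.00 ± 0.17 for GLN2 (-0.36 to 0.36, adjusted p = 0.999), where 0.432% of probe sets were called. The intervals leave room for a change of up to 0.70 in AMT1-2, the gene with the wider spread.

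At the joint of blade and sheath, the blade base and the sheath top differed by 0.07 ± 0.33 for AMT1-2 (-0.60 to 0.75, adjusted p = 0.925). GLN2 differed by 0.36 ± 0.20 (-0.05 to 0.78, adjusted p = 0.258). Neither was called, while 8.54% of probe sets were. The 3 blade base arrays of GLN2 were nonetheless all above the 3 sheath top arrays.

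Nodes and flag blade are the organs where AMT1-2 stood highest. The nodes were higher than the blade by 1.50 ± 0.21, a 2.82-fold difference (adjusted p = 1.35e-06), and all 6 node arrays were above all 9 blade arrays. GLN2 was 61.2-fold lower in the nodes (-5.94 ± 0.13, adjusted p = 1.44e-19), also with no overlap. In this comparison 38.1% of probe sets were called, so a call by itself was common.

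**Figure D2:**
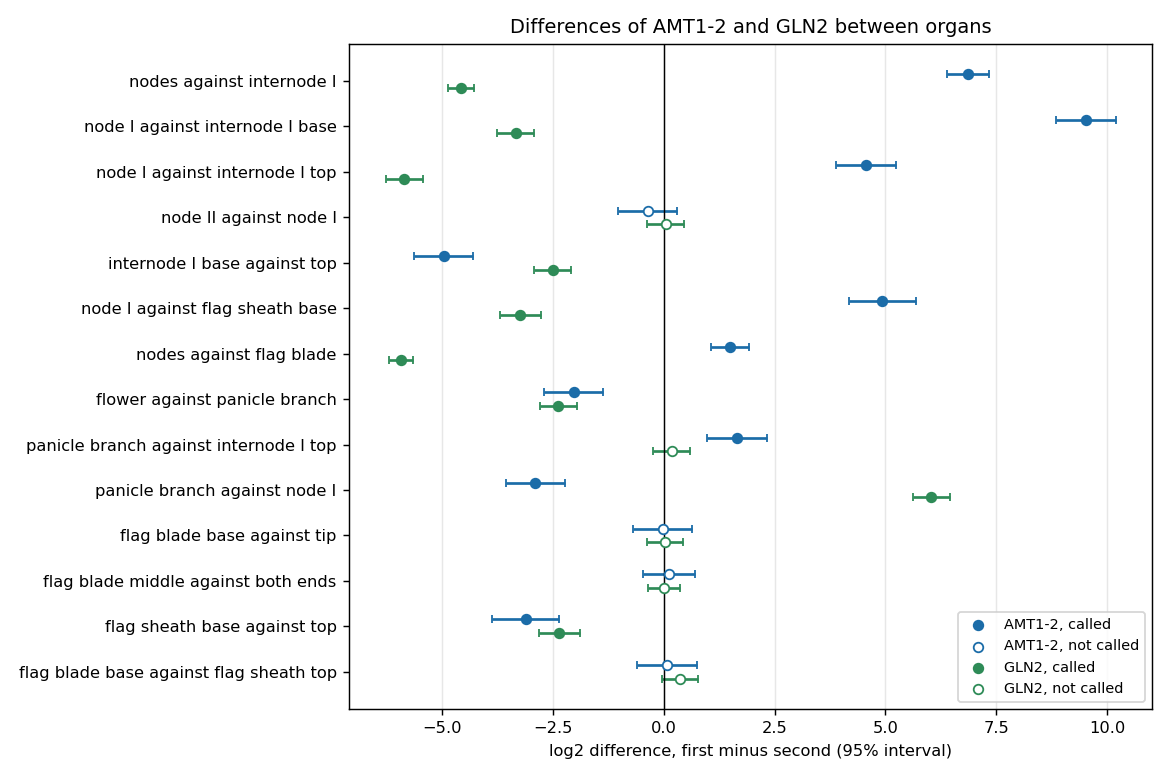
Log2 differences (horizontal axis, first organ minus second, bars are 95% intervals) of AMT1-2 (blue) and GLN2 (green) in the 14 comparisons of organs; filled points were called. The genes lie on opposite sides of 0 wherever a node is compared with another organ, and on the same side between base and top of internode I and of the flag sheath. AMT1-2 was under 5.83 at both ends of internode I, at the sheath base and in the flower.

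In the panicle, the flower before anthesis was compared with the branch that carries it. AMT1-2 read 4.73, 5.18 and 4.90 in the flower and 7.03, 7.34 and 6.56 in the panicle branch. GLN2 read 12.29, 12.06 and 12.01 in the flower and 14.46, 14.55 and 14.51 in the branch. Both genes were lower in the flower, with no overlap of arrays. The differences were -2.04 ± 0.33 for AMT1-2 (adjusted p = 2.11e-05), at least 2.22-fold, and -2.39 ± 0.20 for GLN2, or 5.23-fold (adjusted p = 2.65e-09). Of the probe sets 28.6% were called. With levels under 5.83 raised to it, AMT1-2 had a limma adjusted p = 0.00143.

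The panicle branch continues the stem above internode I. Compared with the internode top it was higher in AMT1-2 by 1.65 ± 0.33 (adjusted p = 0.00364), at least 2.22-fold, where only 3.43% of probe sets were called. With levels under 5.83 raised to it, the limma adjusted p was 0.0107. GLN2 differed by 0.17 ± 0.20 (-0.24 to 0.59, adjusted p = 0.72) and was not called, although the 3 branch arrays lay above the 3 internode arrays. Against node I the branch was lower in AMT1-2 by -2.90 ± 0.33, or 7.48-fold (adjusted p = 1.96e-07), and higher in GLN2 by 6.04 ± 0.20, or 65.8-fold (adjusted p = 1.13e-15; 24.4% called).

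Put in order over the 11 replicated organ parts, AMT1-2 fell into 3 levels above 5.83 and 4 parts under it. The nodes stood at means of 9.88 and 9.51, the blade parts and the sheath top at 8.07 to 8.28, and the panicle branch at 6.98. The internode top (5.32), the sheath base (4.95) and the flower (4.94) overlapped one another, and the internode base read 0.35, and these 4 parts are given no order. Neighbours within a level overlapped and were not called. The steps between levels were called, from node II to the blade middle (1.23 ± 0.33, adjusted p = 0.00323; 32.1% of probe sets called), from the sheath top to the panicle branch (1.09 ± 0.33, adjusted p = 0.0177; 12.7% called), and from there to the internode top. The flower and the internode base, both under 5.83, differed by 4.59 ± 0.33 (adjusted p = 1.01e-10; 32.8% called).

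Of the 55 pairs of organ parts 45 were called for AMT1-2, where a pair called between 0.0259% and 42.3% of all probe sets, with a median of 24.8%. With levels under 5.83 raised to it, 42 pairs were called. In 45 pairs or more 24 probe sets, or 0.0621% of those tested, were called. The 45 include calls between parts that were both under 5.83, and the share of probe sets called in 42 or more was not computed. Both nodes were higher than each of the other 9 parts, in all 18 such pairs, which held for 143 probe sets (0.37%).

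GLN2 fell into 3 levels. The panicle branch (14.51), the blade parts (14.41 to 14.44), the internode top (14.33) and the sheath top (14.07) were high. The flower (12.12), the internode base (11.82) and the sheath base (11.72) were intermediate, and the nodes were low at 8.51 and 8.47. The sheath top was above the flower by 1.95 ± 0.20 (adjusted p = 3.92e-08; 33.8% called), and the sheath base was above node II by 3.21 ± 0.22 (adjusted p = 4.23e-09; 9.14% called). In all, 36 of 55 pairs were called, and 1487 probe sets (3.85%) were called in that many or more. Both nodes were lower than each other part in all 18 pairs, as for 273 probe sets (0.706%).

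Deposited signals of GLN2 ran from 299 in a node I array to 30318 in a panicle branch array. Over the 35 arrays its normalized level spanned 6.39 log2 units. AMT1-2 spanned 10.30, down to the floor, and on log2(signal + 16) the spans were 6.26 for AMT1-2 and 6.32 for GLN2. Setting organ means of both genes side by side gave Pearson's r = -0.14 and Spearman's rho = -0.07 over 11 organ parts. Without the 2 nodes the 9 others gave r = 0.79 and rho = 0.70. These values describe organ means taken from the same arrays, with 4 of the AMT1-2 means under 5.83, and the parts fall into separate groups, so no test was made. The nodes were highest of the 11 in AMT1-2 and lowest in GLN2, so r rises by construction when they are left out. The values over 9 parts are thus no separate evidence that the 2 genes vary together.

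**Figure D3:**
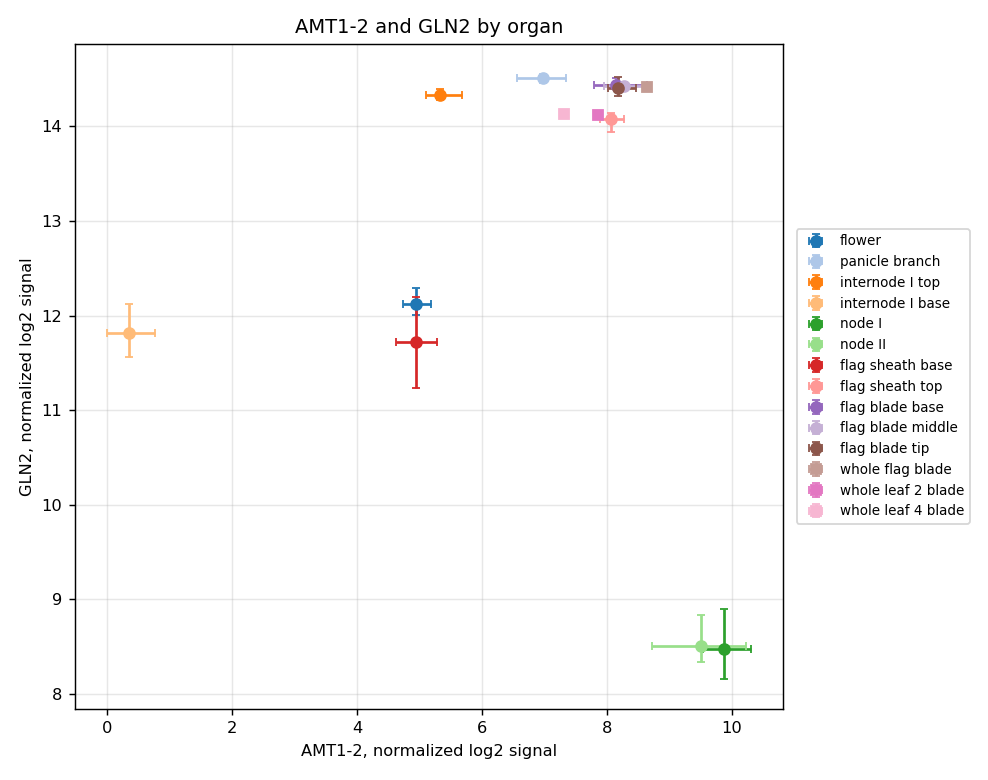
Normalized log2 signal of GLN2 (vertical axis) against AMT1-2 (horizontal axis) by organ part; round points are means of replicated parts, bars run from the lowest to the highest array, and squares are whole blades with 1 array. Node I and node II lie alone at the lower right, with mean AMT1-2 above 9 and mean GLN2 below 9.

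Whole blades of 3 leaves were measured once each, without a replicate check. AMT1-2 read 8.64 in the flag leaf, 7.85 in leaf 2 and 7.305 in leaf 4. Against the flag leaf it differed by -0.79 in leaf 2 and by -1.34 in leaf 4, the latter 2.53-fold, where 21.8% and 22.7% of probe sets differed by more than 2-fold. GLN2 read 14.42, 14.12 and 14.13, and differed by -0.30 and -0.29. On the deposited scale the GLN2 difference of leaf 4 was -0.77 and with array medians set equal -0.75, so its size depends on the scaling. The flag leaf value lay inside the range of the 9 flag blade arrays for both genes, 7.79 to 8.67 for AMT1-2 and 14.33 to 14.52 for GLN2.

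The second GLN2 probe set had the same sign in the comparisons above that were called for the first. All its arrays of both nodes, the internode base and the flower were under 5.83, so it does not order these parts, and its sign was the opposite for the flower against node II (-0.70 ± 0.42, not called, against 3.61 ± 0.20). It read 3.87, 4.70 and 4.05 in node I, 4.69, 4.90 and 5.59 in node II and 4.55, 5.73 and 5.24 at the internode base. These 3 parts overlapped. Node I against the internode base differed by -0.97 ± 0.42 (adjusted p = 0.0663) and was not called. Node I was lower than the internode top by -4.79 ± 0.42 (adjusted p = 4.88e-09), and the nodes were lower than the blade by -4.73 ± 0.27 (adjusted p = 3.49e-13). The flower, intermediate on the first probe set, read 4.19 to 4.51 on the second, within the span of the node arrays. Of the 55 pairs 32 were called, and organ means of the 2 probe sets correlated at r = 0.88 over 11 parts.

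Among the genes of the glutamine synthetase family, GLN2 was the one lower in nodes. Of 4 measured genes 1 was higher and 1 lower in nodes than in internode I, where 11.4% of all probe sets were higher and 10.8% lower. The higher one was GLN1-2, a cytosolic form, at 1.94 ± 0.26 (adjusted p = 1.64e-06), with means of 13.38 in node I and 13.00 in node II against 11.75 and 10.75 at the top and base of the internode. Against the flag blade, where 19% of all probe sets were higher and 19.1% lower, 2 of the 4 were higher and 1 lower. The higher ones were GLN1-2 (1.28 ± 0.24, adjusted p = 5.16e-05) and GLN1-3 (1.76 ± 0.47, adjusted p = 0.00223). GLN1-1 differed by 0.82 ± 0.10 (adjusted p = 2.84e-07), under the 2-fold limit. GLN1-3 was higher in the flower than in the panicle branch (2.73 ± 0.72, adjusted p = 0.00377), where GLN2 was lower. It was also higher at the internode base than at its top (2.70 ± 0.72, adjusted p = 0.00348), again opposite to GLN2.

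Of 8 measured genes of the ammonium transporter family, 3 were higher and 1 lower in nodes than in internode I, where 11.4% of all probe sets were higher and 10.8% lower. Beside AMT1-2 the higher ones were AMT1-1 (1.25 ± 0.30, adjusted p = 0.00153) and AMT2-3 (1.86 ± 0.73, adjusted p = 0.042). Every array of AMT2-3 in these parts was under 5.83, with means of 4.76 and 4.86 in the nodes and 2.59 and 3.31 in the internode, so its call compares low signals. AMT2-1 was lower (-1.24 ± 0.20, adjusted p = 2.06e-05). Against the flag blade AMT1-2 was the 1 member called higher in nodes, and 4 were lower, against 19% and 19.1% of all probe sets. The lower ones were AMT3-3 (-3.58 ± 0.29), AMT2-1 (-2.59 ± 0.18), AMT3-2 (-2.50 ± 0.48) and AMT1-1 (-1.86 ± 0.27). The remaining AMT2-2, AMT2-3 and AMT3-1 differed by 0.38 ± 0.67, -0.67 ± 0.67 and -0.56 ± 0.33 and were not called. Of the replicated parts, AMT1-1 was highest in the sheath top (mean 13.62) and the blade base (13.51) and lowest at the internode base (9.22), the part where AMT1-2 read near the floor. The AMT3-2 probe set is of a kind that can also bind near-identical transcripts, so its values are uncertain.

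Genes that take up and assimilate nitrogen were listed as a wider set of 26, which includes both families. In nodes against internode I 6 were higher, among them AMT2-3 on low signals, and 4 lower. Of all probe sets tested 11.4% were higher and 10.8% lower, and the medians were 0.05 for the list and 0.04 for all. In nodes against flag blade 7 were higher and 10 lower, against 19% and 19.1% of all probe sets. The median there was -0.60 against 0.00. Higher in the nodes were the nitrate transporter NRT2.3 (4.89 ± 0.43), its partner protein NAR2.2 (4.21 ± 0.58), GRF4, a transcription factor of growth and nitrogen use (3.15 ± 0.39), and GDH1, a glutamate dehydrogenase (2.55 ± 0.21). Lower were the nitrate reductase NIA1 (-4.08 ± 0.39), the glutamate synthases GLT2 (-3.67 ± 0.40) and FD-GOGAT (-2.77 ± 0.09), and the regulator NLP1 (-1.96 ± 0.13). The largest of these adjusted p-values was 1.08e-06, for NAR2.2. The NRT2.3 probe set too can bind near-identical transcripts. The same holds, among others, for those of the node transporter Lsi6 and of RBCS, GLO4, AL1, AIP1, FBPase and OsC3H33, named below. PROT1, a proline transporter and the 1 amino acid transporter that could be matched by symbol, was lower in the nodes than in the blade (-1.33 ± 0.13, adjusted p = 3.89e-09).

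At the bases of internode and sheath, more members of the list were lower than higher, as were more of all probe sets. GLN2, lower at both bases, and AMT1-2, lower at the sheath base, are counted in the list. At the internode base 3 of the 26 were higher and 7, AMT1-2 with its low signals included, lower than at the top, with a median of -0.67 against -0.12 over all probe sets, of which 13.8% were higher and 18.7% lower. NIA1 was lower by -6.77 ± 0.60 (adjusted p = 4.55e-09), GLT2 by -4.49 ± 0.62 (adjusted p = 2.35e-06) and FD-GOGAT by -2.22 ± 0.15 (adjusted p = 4.29e-11). At the sheath base 1 was higher and 9 were lower than at the sheath top (median -0.95 against -0.05), where 8.53% and 9.02% of all probe sets were. AMT3-3 differed there by -2.86 ± 0.50 and AMT3-2 by -3.05 ± 0.83, next to the -3.12 of AMT1-2. In the flower 3 were higher and 9 lower than in the panicle branch (median -0.85 against -0.18), where 12.7% and 15.9% of all probe sets were. NLP1 differed there by -3.28 ± 0.20 and GDH2, another glutamate dehydrogenase, by 2.87 ± 0.20. Between tip and base of the blade the median of the 26 was 0.11 and between node II and node I it was -0.16, with no call among them.

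**Figure D4:**
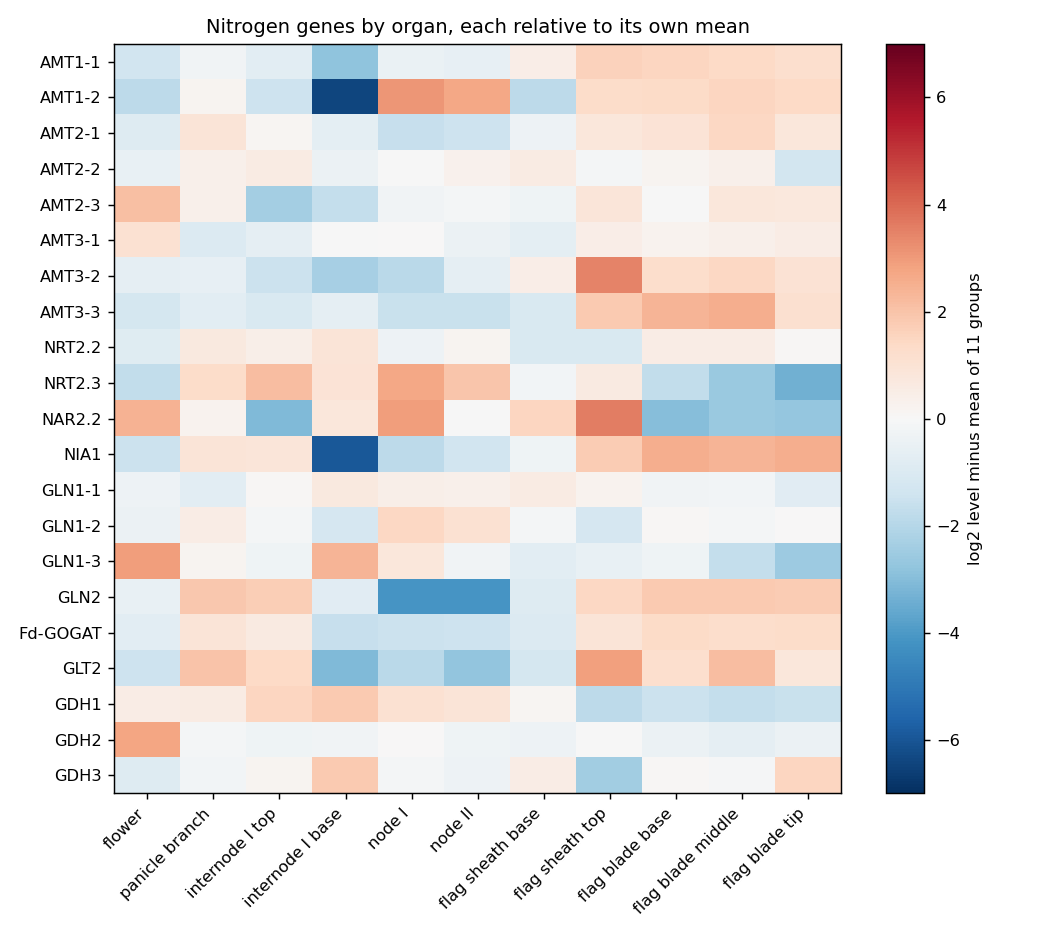
Mean log2 level of 21 genes of nitrogen uptake and assimilation (one per line) in the 11 replicated organ parts (columns), each relative to the gene's own mean over the parts; red is above and blue below that mean. AMT1-2 stands out red in both nodes and dark blue at the internode base, and GLN2 is blue in the nodes and red in blades, sheath top, internode top and panicle branch.

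GLN2 acts beside the enzymes of photorespiration, and 6 genes listed for this pathway could be matched by symbol. A further 22 listed symbols had no match. Whether each of the 6 acts in photorespiration was not tested. In nodes against flag blade 4 were lower and 2 higher, with a median of -3.69 against 0.00 over all probe sets, of which 19.1% were lower and 19% higher. GDCSH, the H subunit of glycine decarboxylase, which frees ammonium in leaf mitochondria, was lower by -6.15 ± 0.14 (adjusted p = 2.35e-19), next to the -5.94 of GLN2. The glycolate oxidases GLO5 (-5.64 ± 0.16) and GLO1 (-4.84 ± 0.20) and the catalase CATA (-2.53 ± 0.20) were lower too. The glycolate oxidase genes GLO3 (4.66 ± 0.33) and GLO4 (1.47 ± 0.16) were higher in the nodes. In nodes against internode I 3 of the 6 were lower (median -0.93), against 10.8% of all probe sets. Along the internode 5 were lower at the base, against 18.7%.

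Of 13 genes of the photosynthetic apparatus, 11 were lower and 1 higher in nodes than in the flag blade (median -3.19), against 19.1% and 19% of all probe sets. In nodes against internode I 11 were lower (median -2.13), against 10.8%. RBCS, the small subunit of Rubisco, was lower than in the blade by -7.10 ± 0.13, NDHM by -5.51 ± 0.16 and LFNR1, a ferredoxin-NADP reductase of leaves, by -5.47 ± 0.15. PORA, a protochlorophyllide reductase, was the 1 higher (3.53 ± 0.21). In the flower 10 of the 13 were lower than in the panicle branch (median -1.67), against 15.9% of all probe sets. At the sheath base 7 were lower and 1 higher than at the top (median -1.20), against 9.02% and 8.53%.

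The summed level of markers of green tissue was high, intermediate and low in the same parts as GLN2. The sum is weighted to the brightest genes, and gene by gene not all followed. All 5 were lower in nodes than in internode I, against 10.8% of all probe sets. In the flower 4 were lower than in the panicle branch, against 15.9%. At the base 4 were lower than at the top in the internode, against 18.7%, and in the sheath, against 9.02%. Node I was lower than the internode base in 3, where 29% of all probe sets were called. All 5 of these green tissue genes are also among the photosynthetic genes above, so they are no separate set. Their summed level was 15.86 to 16.03 in the flag blade and 15.91 to 16.08 in the panicle branch. It was 15.74 to 15.98 in the top of the internode and 15.42 to 15.75 in that of the sheath. It was 14.05 to 14.30 in the flower, 13.06 to 14.04 at the sheath base and 13.13 to 13.26 at the internode base. The nodes were lowest, at 11.43 to 11.75 in node I and 11.05 to 11.40 in node II, where 1 of the 5 genes was below the median of all values and none was at the floor. Secondary wall genes were highest at the internode base, where AMT1-2 read near the floor. Their summed level over 3 genes was 15.65 to 15.90 there and 9.46 to 10.40 at the internode top. It was 11.95 to 12.88 in node I and 11.48 to 12.25 in node II, where AMT1-2 was highest, and 5.94 to 6.87 in the blade middle. The part of these tissues in the AMT1-2 and GLN2 differences was not tested.

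Genes whose pattern over the 35 arrays was most like that of each of the 2 were sought by Pearson's r. The search covered the tested probe sets of genes with a name, 2972 for AMT1-2 and 2971 for GLN2. Here a gene with several probe sets was ranked by its most alike one. For GLN2 they were LFNR1 (0.989), AL1 (0.976), OsSNAT2 (0.975), FBPase, a fructose-bisphosphatase gene (0.972), and CEST (0.971). Their levels spanned 3.78 to 6.91 log2 units, and FBPase for example had means of 13.49 at the blade base, 9.58 at the internode base and 7.37 in node II. Over the 11 organ means the first 5 were OsSNAT2, LFNR1, AL1, BIPP2C1 and CHLH, a subunit of magnesium chelatase.

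For AMT1-2 the most alike were OsCyp3 (0.924), ACR2.1 (0.912), EIL1 (0.907), GLR3.1 (0.901) and AIP1 (0.892). Each had its lowest mean at the internode base, where AMT1-2 read near the floor and far below its other levels. How far r rests on these low signals was not tested. By rank they were less alike, with Spearman's rho of 0.884, 0.872, 0.841, 0.712 and 0.787 in that order. These genes spanned only 1.24 to 2.81 log2 units where AMT1-2 spanned 10.30, or 6.26 on log2(signal + 16). OsCyp3 for example had means of 12.71 in node I, 12.00 at the blade base and 10.58 at the internode base. GLR3.1 did not stand apart in the nodes, with 10.00 in node I, 10.25 in node II, 10.10 at the blade base and 7.73 at the internode base. Over the 11 organ means the first 5 were EIL1, OsC3H33, ACR2.1, OsCyp3 and AIP1. All of these correlations describe arrays of shared organs and normalization and carry no test.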

How the data were processed

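The authors' deposited values are signal intensity per probe set on a linear scale. Per the labels' protocols, total RNA was taken with RNeasy kits and turned into biotinylated cRNA. The sources used here do not name the software, but every array has a trimmed mean (2% cut from each end) close to 500.1. No detection calls were used.

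Signals under 1 were raised to that floor before log2. Array medians ran from 5.39 to 6.36, more than the limit of 0.5, so the 35 arrays were quantile normalized. Without 123 control probe sets, 57258 remained, and 38673 of them reached the overall median value of 5.83 in 3 or more of the 32 replicated arrays and entered the tests. In R 4.3.3, limma 3.58.1 (lmFit, eBayes) fitted a mean for each of 11 groups to those 32 arrays, with 21 residual degrees of freedom. P-values were adjusted by Benjamini-Hochberg over all probe sets within a comparison. Arrays of single whole blades stayed out of the fit. The steps were tested on simulated data.

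The genes, the gene lists and the comparisons were chosen with earlier results of these data known. Named beside AMT1-2 and GLN2 were their family members, up to 4 called members of a list with the largest change and any a sentence on the list needed, and the 5 genes most alike. List members were matched by symbol through a table of rice genes, and a gene with several probe sets was read by the one with the highest mean. Many symbols had no match. Alternatives were other scalings, log2(signal + 16), no filter, only the arrays compared, the replicate number as a block each array left out and, added after the data were seen, levels under 5.83 raised to it.

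Samples that share a replicate number did not deviate together: of 155 such pairs between groups 3 correlated above 0.1, with a range of -0.11 to 0.14, so the numbers were not taken to pair samples.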

Additional observations from a re-analysis of the deposited data

Results flagged for a closer look

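The step of AMT1-2 from top to base differed between internode I and the flag leaf sheath, by -1.86 ± 0.49 in the test of the difference itself (limma adjusted p = 0.00769), with a step of -4.97 in the internode and of -3.12 in the sheath. All internode arrays were under 5.83, the median of all values, and the 3 base arrays near the floor. On log2(signal + 16) the difference was 0.88 (adjusted p = 0.15), so its direction is not settled. With levels under 5.83 raised to it the difference was 2.24, which is the size of the sheath step alone by construction. GLN2 had steps of -2.52 and -2.36, and their difference was not called.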

How the results depend on the processing

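Of 461 alternative values for the tests of AMT1-2 and GLN2, 434 kept direction and call, 25 turned direction and 2 lost their call. Apart from the AMT1-2 difference between the internode and sheath steps, the turns were all in differences that were not called. That step difference was 0.88 on log2(signal + 16). It was 2.24, the size of the sheath step alone by construction, with levels under 5.83 raised to it, a setting added after the data were seen. With each array left out it ran from -2.18 to -1.53, losing its call without flag sheath base replicate 1. AMT1-2 in blade base against sheath top was -0.070 on the deposited scale, -0.15 with array medians set equal and -0.42 with hybridization controls set equal. GLN2 was -0.13 for node II against node I with array medians set equal, and -0.075 for blade base against tip with hybridization controls set equal. With each array left out, AMT1-2 ran from -0.73 to 0.024 for node II against node I, from -0.28 to 0.15 for blade base against tip, from -0.073 to 0.28 for blade middle against both ends and from -0.17 to 0.25 for blade base against sheath top. GLN2 ran from -0.12 to 0.25, from -0.015 to 0.080 and from -0.019 to 0.029 in the first 3 of these, and from -0.64 to 0.32 for the step difference. Apart from low signals, the cause of these shifts was not tested. The number of called pairs was 42 to 45 for AMT1-2 and 36 for GLN2 in every setting run. With only the arrays compared, AMT1-2 fell below the filter at the internode base against top and has no value. The replicate block gave -1.82 for the AMT1-2 step difference and changed no call of either gene. Low signals limit AMT1-2 at both ends of internode I, at the sheath base and in the flower, where every array was under 5.83. Its difference between internode base and top was -1.71 on log2(signal + 16) and 0 with levels raised to 5.83, where it lost its call by construction.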
